A study of Mus musculus with 2 samples.

Results

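The exons described here are 801 cassette exons of mouse neuroblastoma cells whose removal changes the reading frame. They were chosen from 9319 distinct cassette-class exons in the SpliceTrap tables. Of these, 8780 were longer than 30 nt, 5328 of those lay wholly inside an annotated coding exon, and 2370 of those had a size that is not a multiple of 3. At least 20 trio reads in each library were found for 1766 exons, and the remaining 604 were not read further. A trio is an exon with its neighbours on either side, and PSI (percent spliced in) says what percentage of its RNA holds the middle exon. The last condition, that PSI lie between 5 and 95 in either library, left 801 members in 715 genes, and set aside 910 exons above 95 and 55 exons below 5 in both libraries. Because PSI in these same libraries chose the members, their PSI values are a description with no test.

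N2A is a mouse neuroblastoma line, and both libraries came from cultures collected 3 days after transfection with an shRNA plasmid. The shControl cells received a control shRNA and the shPtbp1 cells an shRNA against Ptbp1. There was 1 library per condition, so no difference between the conditions has a replicate check and intervals cover counting error only. The junction reads summed to 74382387 in control cells and 58295142 in knockdown cells. Relative to the median of all genes, Ptbp1 itself had a log2 FPKM ratio of -1.54 (Cufflinks interval -1.61 to -1.47), which is 2.91-fold lower in the knockdown library. All 8 sympathoadrenal markers were detected, Hand2 at a mean depth of 3254 reads per base in control cells and 2910 in knockdown cells. Of the 4 neuronal markers matched, Stmn2 and Gap43 were abundant while Nefl and Nefm stayed under 1 read per base. Alb was at 0 in both libraries, Ptprc and Gfap were under 1 read per base, and Col1a1 stood at 1.23 and 2.79.

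PTBP1 (polypyrimidine tract binding protein) binds CU-rich sequences in introns and represses the splicing of many exons that neurons include. PTBP2 and PTBP3 are its paralogs. When an exon whose size is not a multiple of 3 is skipped, the codons downstream are read in another frame and a stop codon usually follows soon. An mRNA with a stop codon more than about 50 nt upstream of its last exon junction is commonly degraded by nonsense-mediated decay (NMD), so that skipping can lower the amount of an mRNA as well as change its protein. PTBP1 is known to use this route on Ptbp2, whose transcripts without the 34-nt exon are NMD targets.

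The intron sequence just upstream of 7 members and the changed reading frame of 7 are shown first, since the results return to them. The sequences were read from the mm9 genome (NCBIM37), 5′ to 3′ on the strand of the gene. In the first group, 80 nt of intron end at the exon's first base, and capitals mark runs of 6 or more pyrimidines (C or T).
Ptbp2 upstream intron, chr3:119427564-119427643, minus strand: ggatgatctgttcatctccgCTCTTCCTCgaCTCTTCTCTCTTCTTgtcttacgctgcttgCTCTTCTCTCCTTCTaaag
Ptbp3 upstream intron, chr4:59559055-59559134, minus strand: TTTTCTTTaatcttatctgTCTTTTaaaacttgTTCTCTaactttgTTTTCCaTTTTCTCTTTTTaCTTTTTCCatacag
Gabbr1 upstream intron, chr17:37204079-37204158, plus strand: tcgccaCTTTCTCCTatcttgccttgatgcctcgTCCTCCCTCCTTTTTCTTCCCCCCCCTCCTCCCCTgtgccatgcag
Magi1 upstream intron, chr6:93630872-93630951, minus strand: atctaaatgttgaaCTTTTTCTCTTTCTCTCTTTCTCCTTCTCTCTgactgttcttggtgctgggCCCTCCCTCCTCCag
Scamp5 upstream intron, chr9:57295041-57295120, minus strand: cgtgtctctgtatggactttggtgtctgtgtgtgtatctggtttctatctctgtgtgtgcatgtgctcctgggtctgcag
Gria2 upstream intron, chr3:80494441-80494520, minus strand: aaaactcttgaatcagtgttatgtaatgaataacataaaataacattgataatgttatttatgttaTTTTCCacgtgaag
Mpzl1 upstream intron, chr1:167531987-167532066, minus strand: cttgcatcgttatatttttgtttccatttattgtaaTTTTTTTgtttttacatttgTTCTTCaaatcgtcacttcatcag
The first 5 of these exons had a higher PSI in knockdown cells by 5 points or more, and the Gria2 and Mpzl1 exons had a lower one. Runs of pyrimidines filled 39 nt of the 80 upstream of the Ptbp2 exon, 46 nt for Ptbp3, 44 nt for Gabbr1 and 45 nt for Magi1. The Scamp5 window had none, its pyrimidines being broken up by G and A. Runs filled 6 nt upstream of the Gria2 exon and 13 nt upstream of the Mpzl1 exon. The paper found that some triplets with G, such as UGU, also favour PTBP1 binding. Runs of C and T do not count these, so a window without runs may still hold sequence that PTBP1 binds.

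In the second group the exon has been removed from the coding sequence. Each line begins 12 nt or, with a split codon, up to 14 nt before the joined ends and runs in frame to the first stop codon, in capitals.
Ptbp2 skipped frame: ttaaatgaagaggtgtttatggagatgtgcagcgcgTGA
Ptbp3 skipped frame: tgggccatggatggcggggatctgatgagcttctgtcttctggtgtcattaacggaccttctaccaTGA
Gabbr1 skipped frame: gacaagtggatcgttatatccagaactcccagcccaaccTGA
Scamp5 skipped frame: tacctctggatgTGA
Armc2 skipped frame: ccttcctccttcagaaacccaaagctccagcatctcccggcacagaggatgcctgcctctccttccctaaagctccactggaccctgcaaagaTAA
Wdpcp skipped frame: accatcagtgatgatttcctattaTGA
Adamts10 skipped frame: acataccgaggagcatgtaggctgTGA
In Scamp5 the stop was formed at the joint itself, with its first base from the exon before and the others from the exon after. In Ptbp2 it came 24 nt after the joint and lay 361 nt before the last exon junction. The same distance to the last junction was 1435 nt in Ptbp3, 824 nt in Gabbr1, 218 nt in Scamp5 and 2034 nt in Armc2.

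Every member was examined in this way in the annotated transcripts. For 727 members a complete coding transcript holds the exon, and in all 727 the annotated stop was the first in frame, a check of the reading. Skipping gave a stop more than 50 nt before the last junction in 471 members (58.8%). In 40 members (5%) it was inclusion that gave such a stop in an annotated transcript without the exon, in 50 (6.2%) either form did, depending on the transcript, and in 209 (26.1%) neither did. The class of 209 includes members for which only skipping or only inclusion could be evaluated. The other 31 members could not be evaluated. In the 471 members the stop followed a median of 11.7 codons after the joint. Among 1247 frame-preserving coding cassette exons over 30 nt, chosen by the same rule but with sizes that are multiples of 3, only 10 of the 1217 evaluated gave a premature stop on skipping.

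Members were mostly included exons. The median PSI was 88.2 in control cells and 85.1 in knockdown cells, against 65.0 and 65.5 for the frame-preserving exons. Their median size was 110 nt (31 to 8104 nt), and 416 sizes left a remainder of 1 and 385 a remainder of 2 on division by 3. The acceptor was AG in 799 members and the donor GT in 787 and GC in 13. The median trio held 657 control reads and 593 knockdown reads. There were 103 members with another cassette exon inside their trio and 109 that overlapped another cassette exon, so that these share reads with a neighbour.

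PSI rose by 5 points or more in 140 members and fell by as much in 236, while 425 moved less. As shares, 17.5% rose and 29.5% fell, whereas over all 3790 assayable cassette exons 27.8% rose and 25.3% fell. The median change was -1.9 points (quartiles -5.7 and 2.6), with -0.2 for frame-preserving exons (393 rose and 325 fell) and -0.1 over all assayable cassette exons. The junction reads give a second PSI, the mean of both inclusion junctions over that mean plus the skipping junction, with a 95% Newcombe interval for its difference. That interval lay above 0 for 58 members (7.24%, background 16.4%) and below 0 for 155 (19.4%, background 13.7%). Of the 140 that rose 46 had such an interval above 0, and of the 236 that fell 114 had one below 0. Over all assayable cassette exons 551 of 1055 rises and 423 of 959 falls had an interval on their side. For frame-preserving exons these were 253 of 393 rises and 179 of 325 falls. Members that rose held fewer junction reads (median 115.5 in control cells) than members that fell (182) or moved less (440), and 56 members had fewer than 20 junction reads in a library, 26 of which rose and 20 of which fell.

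**Figure D1:**
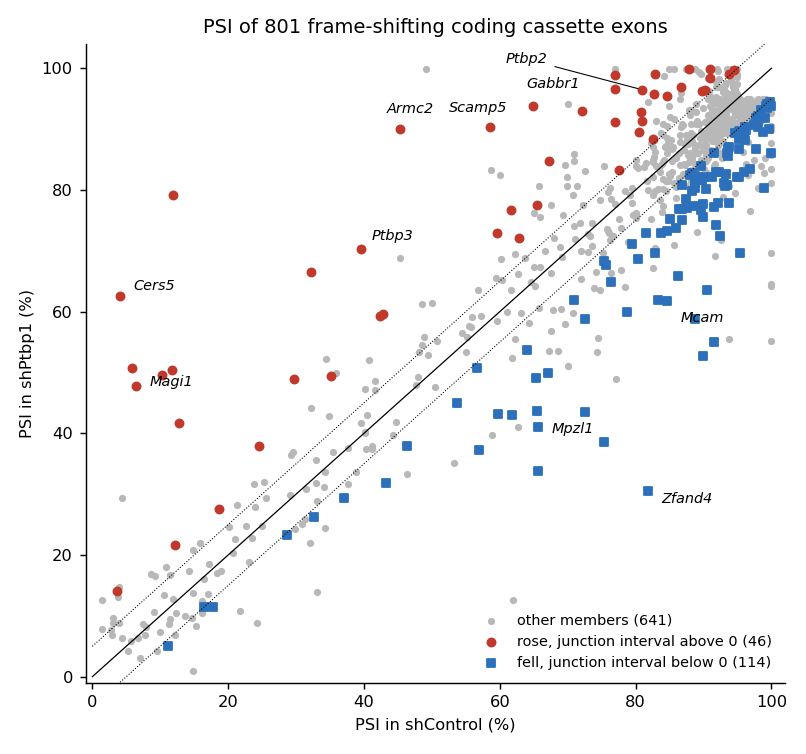
PSI of the 801 members in shControl (x axis, %) and shPtbp1 (y axis, %). Red circles are the 46 that rose and blue squares the 114 that fell with a junction interval excluding 0; the dotted lines mark 5 points, and most members lie in the upper right corner where both libraries include the exon.

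The rule itself bears on these counts. PSI was within 5 to 95 in both libraries for 573 members, in the control library alone for 72 and in the knockdown library alone for 156. Of the 156, which mostly stood above 95 in control cells, 67 fell and 9 rose by 5 points or more. Of the 72, 38 rose and 2 fell. At the edges of the rule, Bcas3, Mx1, Nme5 and Arpp21 entered with 20 reads in the shallower library while Trpc7, Elmo3 and Xkrx stayed out with 19. A further 6 members, Nt5dc1, Wdr67, Fam189b, Sart3, Lrch4 and Lrp6, had a lower PSI of exactly 95.

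Since members and frame-preserving exons began at different levels, the counts were also read within ranges of control PSI. Between 80 and 95, 13.8% of 385 members rose and 24.4% fell, beside 15.2% and 28.7% of 341 frame-preserving exons. At 95 or more, 46.9% of 147 members and 48.5% of 103 frame-preserving exons fell, and 0 of either rose, since so little room is left below 100. Under 50, 37.6% of 133 members rose and 18.8% fell, beside 48.6% and 11.8% of 473 frame-preserving exons. Members in this lowest range were less deeply read, with a median of 95 control junction reads against 215. Of their rises 18 of 50 and of their falls 8 of 25 had a junction interval on that side. For frame-preserving exons these were 161 of 230 and 26 of 56. The shares of both classes were close above 80 and further apart under 50, and neither gap was tested. Most members lay in the high range (532 of 801), as did 444 of 1247 frame-preserving exons.

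**Figure D2:**
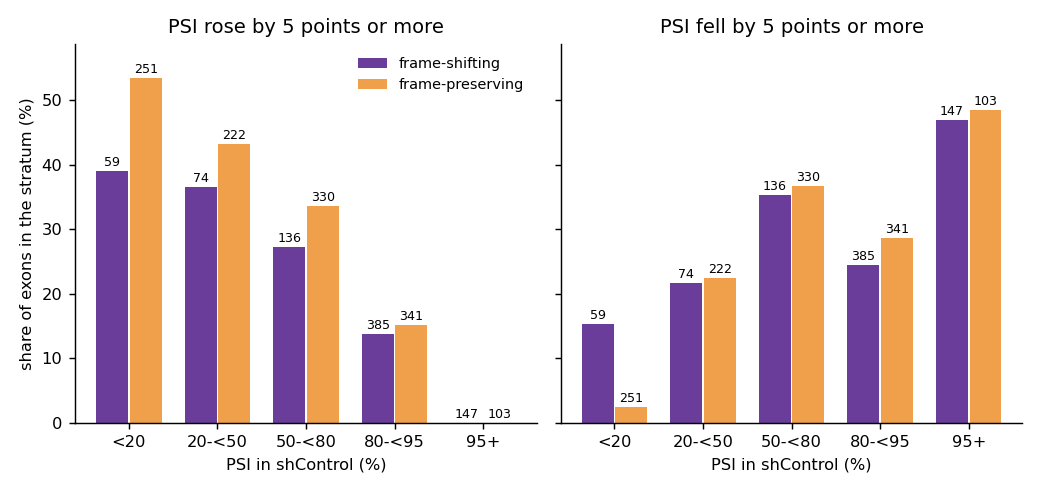
Share of exons (y axis, %) whose PSI rose (left) or fell (right) by 5 points or more, by PSI in shControl (x axis), for frame-shifting (purple) and frame-preserving (orange) exons; the number above each bar is the number of exons in that range. The bars of both classes are close from 80 upward and part most under 20.

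Rises were found in Ptbp2, Ptbp3, Gabbr1, Scamp5 and Armc2 for exons whose skipping gives a premature stop. The 34-nt exon of Ptbp2 (exon 10 of 14, chr3:119427530-119427563, minus strand, coding) had a PSI of 80.9 in control and 96.5 in knockdown cells. Its skipping junction held 87 control reads and 31 knockdown reads, and junction PSI went from 72.2 (95% Wilson interval 67.0 to 76.9) to 94.5 (92.3 to 96.1). The intervals do not overlap. Both PSI measures rose, by 15.6 points in SpliceTrap and 22.3 points (17.1 to 27.7) in the junction reads, which for an exon this short came mostly from 1 side (399 and 53 reads in control cells, 961 and 105 in knockdown cells).

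The 34-nt exon of Ptbp3, named Rod1 in the annotation (exon 2 of 15, chr4:59559021-59559054, minus strand), had a PSI of 39.6 in control cells and 70.3 in knockdown cells. Its junction PSI was 28.3 (20.8 to 37.2) and 57.8 (45.6 to 69.1), a difference of 29.5 points (14.4 to 43.1). Skipping reads numbered 81 and 27. The skipped form was the more abundant in control cells and the included form in knockdown cells.

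Gabbr1 encodes a subunit of the GABA-B receptor. Its 151-nt exon 15 of 23 (chr17:37204159-37204309, plus strand) went from a PSI of 64.9 to 93.8 and from a junction PSI of 62.9 to 93.6, a difference of 30.7 points (22.2 to 39.7). Scamp5, a secretory carrier protein of synaptic vesicles, had PSI values of 58.5 and 90.4 for its 157-nt exon 4 of 7 (chr9:57294884-57295040, minus strand). The junction difference was 32.5 points (27.2 to 37.7), on 181 skipping reads in control and 60 in knockdown cells. In both genes the included form was already the larger and became nearly exclusive.

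Armc2, a gene with armadillo repeats, had a 73-nt exon 3 of 18 (chr10:41728459-41728531, minus strand) at PSI 45.3 and 90.1. Its skipping junction held 28 control reads and 7 knockdown reads, and its inclusion junctions 20 and 19 in control cells and 56 and 53 in knockdown cells. These are low counts, and the junction interval of 29.7 to 61.1 points is wide.

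Other large rises were in exons of the class where no evaluated form held a stop more than 50 nt before the last junction. The 107-nt exon of Cers5, a ceramide synthase named Lass5 in the annotation (chr15:99567978-99568084, minus strand), had PSI values of 4.1 and 62.5. It was among the deepest of the named exons, with 2422 skipping reads in control cells and 614 in knockdown cells, and its junction difference was 58.5 points (56.0 to 61.0). It is exon 10 of 11, and without it the first stop in frame lies in the last exon. Magi1, a scaffold of cell junctions, had an 89-nt exon (chr6:93630783-93630871, minus strand) at 6.5 and 47.8. Its junction difference was 38.1 points (27.9 to 47.4). Dock10 and Iqsec2, exchange factors for small GTPases, and Atp2b4, a calcium pump of the plasma membrane, rose by 44.8, 38.7 and 29.0 points. The Dock10 value rested on 29 junction reads in the control library and the Iqsec2 value on 24. For the Dock10 exon only inclusion, and not its removal, could be evaluated for a stop.

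**Figure D3:**
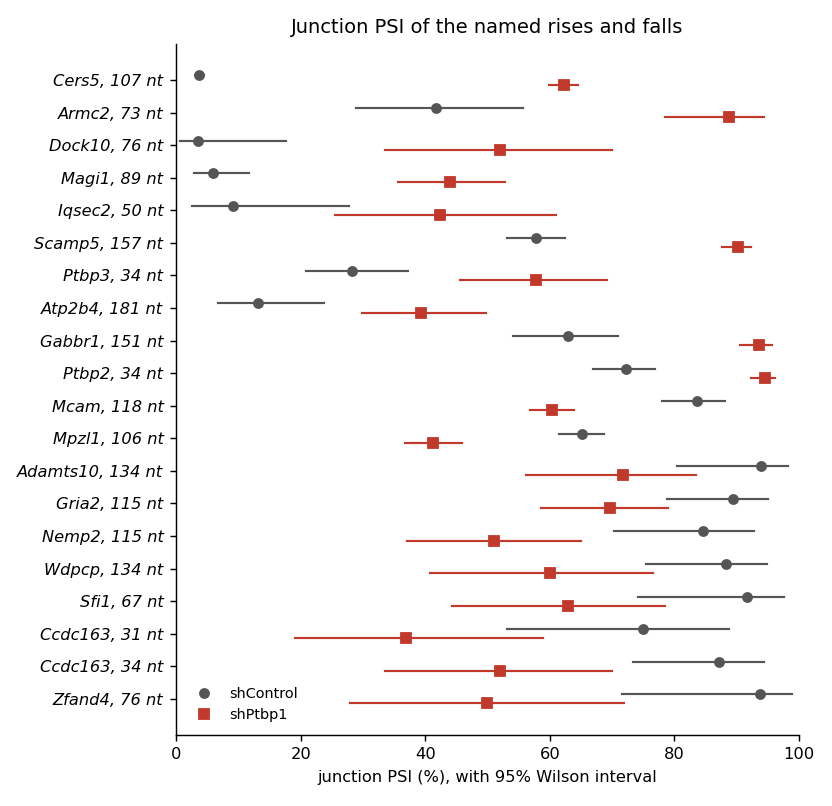
Junction PSI (x axis, %) with 95% Wilson interval for 9 of the 10 largest rises and the 10 largest falls that met the depth limits, and for Ptbp2, in shControl (grey circles) and shPtbp1 (red squares). The Cers5 exon spans the widest gap, and the intervals of several falls are broad.

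Among the falls, Mpzl1, a cell surface glycoprotein, had a 106-nt exon 5 of 6 (chr1:167531881-167531986, minus strand) at PSI 65.6 in control and 41.0 in knockdown cells. Junction PSI was 65.2 (61.5 to 68.7) and 41.3 (36.8 to 45.9), on 232 and 259 skipping reads. Mcam, a cell adhesion molecule, had a 118-nt exon 15 of 16 (chr9:43949358-43949475, plus strand) at 84.7 and 61.8, a junction difference of -23.3 points (-29.0 to -16.6). These are the deepest of the 10, and in both genes removal of the exon moved the stop within the last exon.

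Gria2 encodes a subunit of the AMPA type glutamate receptor, in which a pair of 115-nt exons are used in turn. Exons of equal size can replace each other without a change of frame, a case that the stop classes here do not cover. The member (chr3:80494326-80494440, minus strand) had a PSI of 90.5 and 63.6, on 6 skipping reads in control cells and 23 in knockdown cells. Zfand4, named Anubl1 in the annotation, had the largest fall of all members, 81.8 to 30.5, on 1 and 8 skipping reads. Its junction interval was -66.3 to -12.6 points.

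The remaining falls of the 10 were in Ccdc163, Sfi1, Wdpcp, Nemp2 and Adamts10. The pair in Ccdc163, of 34 and 31 nt, ends at the same base and shares 5 skipping reads in control and 12 in knockdown cells, so it is 1 event. Sfi1 (a centrosome protein) fell by 36.5 points, Wdpcp (a gene of cilium formation) by 29.9, Nemp2 (Tmem194b, a nuclear envelope protein) by 29.1 and Adamts10 (a secreted metalloprotease) by 25.7. None of these had more than 22 skipping reads in a library. In each of these 4 genes the skipped form held a premature stop, as the Wdpcp and Adamts10 frames above show.

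Some members changed most in SpliceTrap with few junction reads, and fall outside the depth limits. These were chosen after their values were seen. Gnas, which encodes the stimulatory G protein alpha subunit, had the largest rise of all, 11.9 to 79.1 for a 95-nt exon, with 6 and 2 skipping reads. Plekha1 went from 49.2 to 99.9 on 7 and 11 junction reads in all.

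The level of each form was read from the junction reads, scaled to 10000000 in each library. In Ptbp2 the inclusion level (mean of both junctions) was 30.4 in control and 91.4 in knockdown cells, and the skipping level 11.7 and 5.3. In Gabbr1 inclusion was 10.4 and 60.0 with skipping at 6.2 and 4.1, and in Scamp5 inclusion was 33.3 and 95.9 with skipping at 24.3 and 10.3. The included form of all 3 genes increased by more than the skipped form lost. In Ptbp3 it was otherwise, with inclusion at 4.2 and 6.3 and skipping at 10.9 and 4.6, so that the sum of both forms was lower in knockdown cells.

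**Figure D4:**
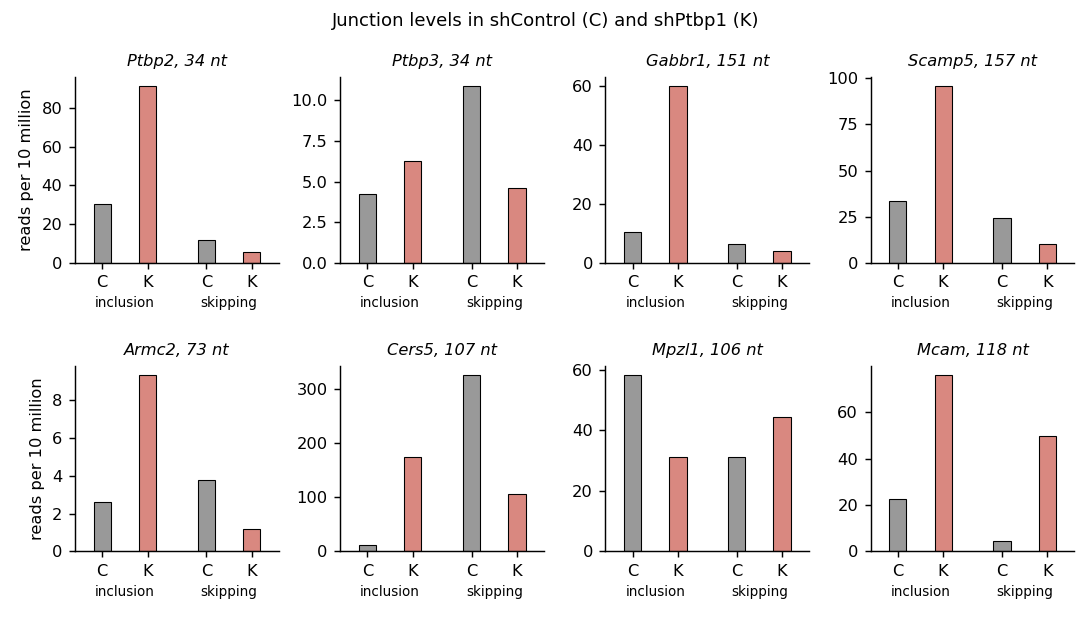
Inclusion (mean of both junctions) and skipping junction levels, in reads per 10000000 junction reads (y axes start at 0 and differ between panels), for 8 named exons in shControl (C, grey) and shPtbp1 (K, red). Inclusion is higher in K in 7 panels and lower in Mpzl1; skipping is higher in K in Mpzl1 and Mcam.

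Over the 46 members that rose with a junction interval, the inclusion level was higher in knockdown cells in 42, the skipping level lower in 41, and both held in 37. Over the 114 that fell with one, skipping was higher in 113, whereas inclusion was lower in 69 and higher in 45. Median skipping levels of the 114 were 2.62 and 6.09, and their median inclusion levels 20.6 and 21.7. In Mpzl1 the inclusion level was 58.4 and 31.1 and the skipping level 31.2 and 44.4, so that inclusion lost more than skipping gained. The exons were chosen by PSI from these same reads, which largely fixes the direction of the skipping level, and the counts are a description only.

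Host gene change was measured on 2 scales that the rule did not use. The first was the Cufflinks log2 (FPKM + 1) ratio, found for 609 members, and the second the read coverage of constitutive-class trios of the same gene, found for 787. Both are given as knockdown over control relative to the median of all genes, which was -0.07 before centring over 9699 genes for FPKM and 0.21 over 11410 genes for the trios. Over all genes 18.7% stood 0.5 or more above the median and 10.1% as far below in FPKM, and 16.8% and 6.83% in constitutive trios. Across 600 members with both, the scales had a Spearman coefficient of 0.80, and 7 members differed by more than 1.

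The genes of members that rose had a median relative log2 ratio of 0.18 in FPKM (quartiles -0.13 and 0.43, n = 106) and 0.12 in constitutive trios (n = 138). The genes of members that fell had 0.01 (-0.17 and 0.25, n = 167) and 0.04 (n = 234), and of those that moved less -0.07 (-0.27 and 0.17, n = 336) and -0.07 (n = 415). The quartile ranges of all 3 groups overlapped widely. Each n counts members, so a gene can enter more than once. Ratios of 0.5 or more were found for 21.7% of members that rose, 14.4% of those that fell and 5.95% of those that moved less, in FPKM. The share among the first is near the 18.7% of all genes. For frame-preserving exons these shares were lower for rises, at 11.3%, and were 13% for falls and 8.76% for the rest. Their medians were -0.004, -0.02 and -0.08, and the difference between the classes was not tested. Among members, depth moved with the 3 groups, as given above, and its part in the result was not tested. With at least 50 junction reads in each library the medians of members were 0.08, 0.003 and -0.08. The value for members that fell turned on how they were counted, at -0.08 with a junction interval below 0 and 0.12 with falls of 10 points or more.

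Across exons, change in PSI and host ratio were weakly related or unrelated. Pearson's r was 0.11 and Spearman's rho 0.07 over 609 exons in FPKM, and -0.002 and 0.01 over 787 exons in constitutive trios. Over members with a premature stop on skipping they were 0.17 and 0.09 in FPKM (352 exons), and 0.07 and 0.05 in constitutive trios (470 exons). The points share both libraries, and 80 genes supply more than 1 exon. In constitutive trios 31 of the members that rose (22.5%) lay in a gene higher by 0.5 or more and 5 (3.62%) in a gene lower by as much. Of the members that fell, 36 (15.4%) lay in a higher gene and 6 (2.56%) in a lower one. Over all genes these shares were 16.8% and 6.83%, so genes lower by 0.5 or more were few on either side and in the background. Among frame-preserving exons, 9.95% of those that rose and 10.8% of those that fell lay in a gene higher by 0.5 or more.

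**Figure D5:**
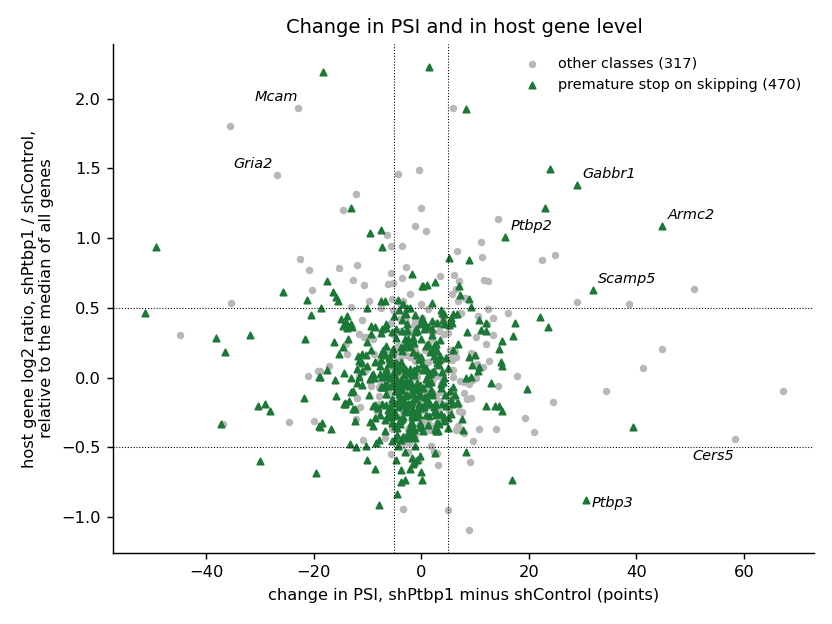
Change in PSI (x axis, points, shPtbp1 minus shControl) and relative log2 ratio of the host gene in constitutive trios (y axis) for 787 members; green triangles are the 470 with a premature stop on skipping, and dotted lines mark 5 points and 0.5. The cloud has no visible slope, and Gabbr1, Ptbp2, Armc2 and Scamp5 lie at upper right with Ptbp3 at lower right.

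The comparison that the reading frame bears on is between members whose skipping gives a premature stop and those where neither form does. With a stop on skipping, the genes of members that rose had a median of 0.23 in FPKM (n = 46) and 0.17 in constitutive trios (n = 63). Where they fell the medians were -0.01 (n = 106) and 0.02 (n = 153), and where they moved less -0.09 (n = 200) and -0.07 (n = 254). With a stop in neither form, the medians were 0.19 and 0.15 for members that rose (n = 38 and 51), 0.10 and 0.16 for those that fell (n = 46 and 54) and -0.02 and -0.03 for the rest (n = 77 and 93). The medians of rising exons were thus alike with and without a premature stop on skipping, and their difference was not tested.

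The same was read for members with a junction interval on the side of the change. In FPKM, the 17 members with a stop on skipping that rose had a host median of 0.23 and the 53 that fell -0.11. In constitutive trios these were 0.14 (n = 21) and -0.11 (n = 76). With a stop in neither form the values were 0.22 (n = 15) and 0.05 (n = 23), and 0.11 (n = 18) and 0.05 (n = 29). Among frame-preserving exons with such intervals, they were -0.01 (n = 223) and -0.09 (n = 145) in FPKM, and -0.05 (n = 253) and -0.10 (n = 179) in constitutive trios. No median in this paragraph was further than 0.23 from that of all genes.

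Of the single genes with a stop on skipping, Gabbr1 stood highest in the named rises, at 1.04 in FPKM and 1.38 in constitutive trios. Armc2 had 0.61 and 1.09, Ptbp2 1.00 (Cufflinks interval 0.85 to 1.15) and 1.01, and Scamp5 0.63 in constitutive trios with no matched FPKM. Ptbp3 went the other way, at -0.81 (-1.18 to -0.46) and -0.88, although its exon rose. Cers5, which gives no premature stop, had -0.44 in constitutive trios.

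Among changes with a junction interval on their side, the genes that stood highest in FPKM included Mcam and Gria2. Mcam, at 1.95 and 1.93, and Gria2, at 1.21 and 1.45, held exons that fell. Iqsec2, whose exon rose, had 1.58 in FPKM but 0.53 in constitutive trios, and Ska1, of the spindle and kinetochore complex, 1.24 but 0.20 with an exon at 99.0 and 91.9. The lowest in FPKM among such changes were Lztfl1, 4833439L19Rik, 3110009E18Rik and Nmt2 beside Ptbp3. Lztfl1, a regulator of ciliary protein traffic, had -8.81 in FPKM and -0.32 in constitutive trios, so the fall in FPKM was not seen on the second scale. 4833439L19Rik, with a premature stop on skipping and PSI values of 56.9 and 37.3, had -0.67 and -0.69, and Nmt2, an N-myristoyltransferase with 83.7 and 72.9, -0.56 and -0.45.

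Factors of NMD and of the exon junction complex were measured as the other side of the same pathway. Of 23 with constitutive trios, 2 stood 0.5 or more below the median of all genes, Ncbp2 (a cap binding subunit) at -0.75 and Rbm8a (a core subunit of the exon junction complex) at -0.55. Their median was -0.18 and the highest was Upf3b at 0.499, just under the limit of 0.5 on the other side. Upf1, the helicase of the pathway, had -0.12 and Smg1, the kinase that acts on it, 0.12. Within these genes 3 members were found, a pair in Dhx34 with falls of 11.0 and 7.4 points whose junction intervals included 0, and 1 in Acin1, at 35.5 and 36.9.

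The intron upstream was described by the share of its triplets that hold only pyrimidines (the 8 triplets that can be made of C and T) over 250 nt, a feature that the rule did not use. Triplets with G were not counted, although the paper places some of them in its PTBP1 binding state. The median share was 20.6% for members that rose (quartiles 16.0 and 25.8), 18.1% for those that fell (14.9 and 22.6) and 18.1% for the rest. With a junction interval it was 22.8% for the 46 that rose and 18.8% for the 114 that fell. Frame-preserving exons had 22.6%, 19.0% and 19.0%, so that the order of the groups was alike. The quartile ranges overlapped in each class.

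Single exons ranged widely around these medians. The share was 41.9% upstream of Iqsec2, 38.7% of Gabbr1, 37.5% of Ptbp2, 35.9% of Ptbp3 and 31.9% of Scamp5. The 80 nt next to the Scamp5 exon, shown above, nevertheless hold no run of 6. Within 100 nt upstream the share was only 15.3% for Iqsec2 and 22.4% for Scamp5, beside a median of 21.4% over all members. It was 57.1% for Gabbr1, 45.9% for Ptbp2 and 49.0% for Ptbp3. Over 250 nt it was 19.4% upstream of Cers5, the largest rise among the well-read exons, beside a median of 18.5% over all members. Within 100 nt the Cers5 share was 30.6%, above the median of 21.4%. Among the 10 largest falls the share over 250 nt ran from 14.5% for Gria2 to 31.9% for Mcam and 32.9% for the 34-nt exon of Ccdc163. Outside them, it was 34.3% upstream of the Tpm1 exon of 79 nt and 12.5% upstream of the Palb2 exon, both named below among the falls. The hexamer CTCTCT, read on the strand of the gene and overlapping the triplets counted, lay in 250 nt upstream of 22.1% of members that rose, 15.3% that fell and 15.5% of the rest, beside 19.1% of all coding cassette exons over 30 nt.

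Of the members, 3 are also in the study's table of exons predicted to be repressed by PTBP1. The Ptbp3 exon is described above. The 41-nt exon of Zfand3 had PSI values of 80.3 and 83.6 and a junction difference of 4.4 points (-1.8 to 10.6). The 182-nt exon that the table names for Srsf11 lies, in the annotation used here, inside Lrrc40 (chr3:157703405-157703586, plus strand) and had 91.2 and 88.1, with a junction interval of -10.5 to 3.4 points. For these 2 exons the junction interval included 0.

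Named gene groups were counted next, and their shares stand beside 17.5% rising and 29.5% falling over all members, and 27.8% and 25.3% over all assayable cassette exons. The lists are short, and no share was tested. Of 7 members in 6 genes known as PTBP1 targets, 4 rose (57.1%) and 1 fell (14.3%), all with junction intervals on that side, and the median change was 15.6 points. The rises included Ptbp3, Gabbr1 and Ptbp2, and the fall was a 79-nt exon of Tpm1 (a tropomyosin, chr9:66877471-66877549), at 92.4 and 72.5 on 2 and 78 skipping reads. The inclusion level of this exon was higher in knockdown cells, 3.56 and 29.2, and so was its skipping level, 0.27 and 13.4. Its PSI fell although the level of its included form rose. Another Tpm1 exon, of 76 nt, was at 97.3 and 93.4, and the Camk2g exon at 92.9 and 91.6. The 76-nt Tpm1 exon moved little in PSI, yet its inclusion level was 43.1 in control and 11.0 in knockdown cells. Its skipping level was 1.48 and 1.03, and the Tpm1 host ratio was -0.42 in FPKM and -0.31 in constitutive trios. The cause of the lower inclusion level was not tested. Since the list holds genes picked for known regulation by this protein, its direction is no independent support.

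Splicing factors held 25 members, of which 4 rose (16%), 5 fell (20%) and 16 moved less, a median of -1.5 points. The share that rose was near that of all members. Beside Ptbp3 and Ptbp2, Clk4, a kinase of SR proteins, rose from 12.2 to 21.7 (junction interval 2.1 to 13.8 points), an exon whose inclusion gives a premature stop. Mbnl2, of the muscleblind family, fell from 67.1 to 49.9 (-26.8 to -4.9). Rbfox2 had 3.8 and 13.1 for a 43-nt exon with 2 inclusion junction reads in control and 15 in knockdown cells.

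Neuronal and synaptic genes held 12 members, of which 6 rose (50%) and 2 fell (16.7%), a median of 3.05 points beside -1.9 over all members. Of these 3 and 1 were supported by the junction interval. After Gabbr1, Mapt, the gene of tau, rose from 35.1 to 49.4 (6.5 to 30.1), Dlg1, a synaptic scaffold, from 35.9 to 49.9 with an interval of -6.2 to 32.3, and the 8104-nt exon of Map1a, a microtubule-associated protein, from 80.8 to 92.8 (3.9 to 15.2). The median host ratio of the 12 was 0.33 in constitutive trios. Dbh and Th, enzymes of catecholamine synthesis among the sympathoadrenal markers, also had higher depth in knockdown cells (317 and 1047 reads per base for Dbh, 5.98 and 26.9 for Th), and their part in the result was not tested.

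Chromatin genes held 18 members (5 rose or 27.8%, 4 fell or 22.2%, median 1.3 points), shares near those of all assayable cassette exons, and 3 of these changes had a supporting interval. Phf14 fell from 90.4 to 80.1 and Kat7, a histone acetyltransferase named Myst2 in the annotation, from 79.5 to 71.2, with junction intervals of -15.3 to -5.5 and -12.9 to -4.9 points. Smarce1, a subunit of the SWI/SNF complex, had 10.3 and 49.6 for a 44-nt exon on 9 and 13 junction reads. The trio of that exon holds 3 other cassette exons.

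Zinc finger genes held 24 members, of which 6 rose (25%) and 9 fell (37.5%), 2 and 3 with intervals. The first share is near that of all assayable cassette exons and the second above both falling shares. Their median host ratio was 0.21 in constitutive trios. Zscan29 fell from 83.3 to 62.0 (junction interval -27.3 to -5.1) and Zfp30 from 93.7 to 77.8 (-35.6 to -1.0). The Zfp934 exon, 14.8 and 1.0 in SpliceTrap, had 6 junction reads in each library, and with an interval of -76.9 to 8.2 those reads give it no direction. Signalling kinases held 14 members, with 1 rise (7.1%) and 4 falls (28.6%), the latter near the share of all members. Tlk2 fell by 12.7 points, and both AMP-activated kinase subunits in the list fell, Prkaa1 by 12.2 (-14.8 to -5.9) and Prkab1 by 7.3 (-12.6 to -2.5).

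Genes of the cell cycle, DNA repair and apoptosis held 10 members, with 2 rises (20%) and 1 fall (10%), a median of -0.35 points. The fall was Palb2, a partner of the repair protein BRCA2, from 95.3 to 82.2 (junction interval -24.1 to -1.0). Cflar, an inhibitor of caspase activation, rose from 89.6 to 99.1 and Bcl2l12 from 32.2 to 44.2, both with intervals that included 0. Ercc3, Birc5, Cdk10, both Cdk19 exons, Rad52 and Mdm4 moved by less than 5 points.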

How the data were processed

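N2A RNA was sequenced as strand-specific 100-base read pairs. The authors mapped reads to exon trios (mm9) with SpliceTrap, and the deposited tables give each trio's inclusion ratio as a fraction, its junction read counts and its coverage (reads per 100 nt). The authors' Cufflinks tables give FPKM and isoform coverage, on an unusual scale, so that only ratios were used. Aligner options and versions are not given in the sources used here.

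Here each exon kept its trio with most reads, and PSI was the ratio after SpliceTrap's correction. Coordinates are mm9 and frames were read in GENCODE vM1 transcripts of the same build. Intervals were 95% Wilson and Newcombe, tested on simulated data; a read pair can count at more than 1 junction. Host genes were matched by RefSeq accession and needed a depth of 1 read per base in a library; log2(FPKM + 1) understates changes of low genes. With 1 library per condition no test was run. The shRNA groups come from the labels. Tools were Python 3.11.15, pandas 2.3.3, SciPy 1.17.1 and pysam 0.24.0.

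Members and gene lists were chosen with earlier results of these data known. Named exons were the 10 largest rises and falls with at least 50 trio and 20 junction reads in each library and a junction interval on that side, members in gene lists (the 5 largest changes where a list held over 10), the 5 genes highest and lowest among supported changes, the Ptb paralogs, members in the study's table of predicted exons, and members at the edges of the rule. Alternatives covered read minimum, PSI limits, annotation, PSI estimate, change threshold, pseudocount, scaling and window. The assembled transcript models, which repeat the isoform table, were not used. An exon that met the rule for named rises is not reported here.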

Additional observations from a re-analysis of the deposited data

How the results depend on the processing

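Of 78 alternative values for the summaries, 63 kept within 1.5 times the count or within the 95% order-statistic interval of the median, and 15 did not. With no limit on PSI there were 1766 exons and the median change was -0.1 points. With PSI of 5 to 95 in both libraries 93 members rose. At 10 points 66 rose and 106 fell, and the host gene medians became 0.28 and 0.12. Members that fell with a junction interval below 0 had a host median of -0.080, and members that moved less had -0.018 with FPKM divided by the library median. Within 100 nt upstream the pyrimidine triplet shares were 23.5% for members that rose, 20.4% for those that fell and 20.4% for the rest, and as a share of pyrimidine bases in 250 nt 54.4%, 52.0% and 52.5%; both change the quantity itself. Of 65 named exons, no called change reversed with junction PSI or with the ratio before correction, and 1 (Ptbp2, 22.3 points) moved beyond its interval. Leaving out trios with other cassette exons, and the minimum of junction reads, were chosen after seeing the data. No paired analysis was possible because each condition has 1 library. At this depth 46 of the 140 rises had a junction interval above 0 and 114 of the 236 falls one below 0, and the other changes had no such interval. These intervals use junction reads only, and the counting error of SpliceTrap's own PSI was not estimated.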

Other observations

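Short members were read unevenly at their ends. In members over 30 and up to 60 nt (106 exons), 68.9% of inclusion junction reads in control cells and 68.6% in knockdown cells lay on the junction with the lower coordinate, against 49.6% and 49.7% in the 235 members over 100 and up to 150 nt. The strand of the gene was not taken into account, and the cause was not tested. Of 50 exons in the study's table of predictions, 37 were found among the cassette exons and 3 were members.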
